A study of Mus musculus with 6 samples.

Results

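The genes described here are 10 markers of retinal astrocytes and of reactive gliosis: Gfap, S100b, Pax2, Pdgfra, Gja1, Slc1a2, Stat3, Socs3, Cebpd and Lcn2. They were chosen by name, and every probe set that the platform annotation assigns to one of these symbols alone was taken. That gave 22 probe sets of 9 genes among 22626 non-control probe sets on the array. The annotation used lists no probe set under Pax2, the transcription factor that marks astrocyte precursors entering from the optic nerve, so Pax2 was not analysed here.

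Retinae were taken at postnatal day 7 from wildtype mice of the C57BL/6 strain and from knockout animals also labelled C57BL/6, hemizygous (-/Y) for the targeted X-linked gene. Total RNA was hybridised to Affymetrix arrays, 3 per group, and whether retinae of several animals were pooled for an array is not stated in the labels. The comparison asks whether astrocyte and gliosis transcripts differ between knockout and wildtype retinae while the layers are still maturing. RNA was taken from whole retinae, so fewer cells of a type and less RNA per cell cannot be told apart.

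Retinal astrocytes migrate in from the optic nerve head as Pax2-positive precursors, respond through the receptor Pdgfra to PDGF-A from ganglion cells, and lay the template on which the superficial vessels grow. Gfap is the intermediate filament of these cells, and Mueller glia, the radial glia of the retina, also make it when the retina is injured. In reactive glia, cytokines of the interleukin-6 family activate the transcription factor Stat3, which drives Gfap and its own inhibitor Socs3, while Cebpd and the secreted lipocalin Lcn2 belong to the acute response.

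No member probe set passed the test for a difference between knockout and wildtype retinae. Each array was scaled to the same trimmed mean, and a probe set was tested when its mean scaled signal over the arrays lay above 62.4, the 40th percentile, which kept 15 of the 22 member probe sets, from 7 genes. Of these 15, 0 had a limma adjusted p under 0.05 (it was 0.999 for each), against 2 of all 13575 tested probe sets (0.0147%). The limma adjusted p was also 0.999 for every tested gene of the other lists named below. At an unadjusted p under 0.05 there were 0 members, against 3.82% of all probe sets, and an equal-variance statistic without moderation gave 0 members at an adjusted p under 0.05, against 0% of all probe sets, and 0 at an unadjusted p under 0.05, against 3.62%. The knockout and wildtype arrays overlapped for all 15, where 4.05% of all tested probe sets had every knockout array above every wildtype array and 5.05% had every one below. At least 1.5-fold change without overlap was found for 0 members and for 1.61% of all tested probe sets.

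Log2 fold changes, knockout minus wildtype, were positive for 9 and negative for 6 of the 15 tested member probe sets, with a median of 0.19 against 0.00031 over all tested probe sets. That balance depends on which probe sets are counted. All 5 tested Gja1 probe sets, which read the same RNA, were among the positive ones. A pair of the 15, Gfap 1426509_s_at and Gja1 1438650_x_at, had wildtype means below the filter and passed through their knockout signal. Over all 22 member probe sets, tested or not, 11 differences were positive and 11 negative, with a median of 0.020. Taking the brightest tested probe set of each of the 7 genes, 3 were positive and 4 negative. Fold changes are on the scale of log2(signal + 19.1), which understates changes of dim probe sets.

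**Figure D1:**
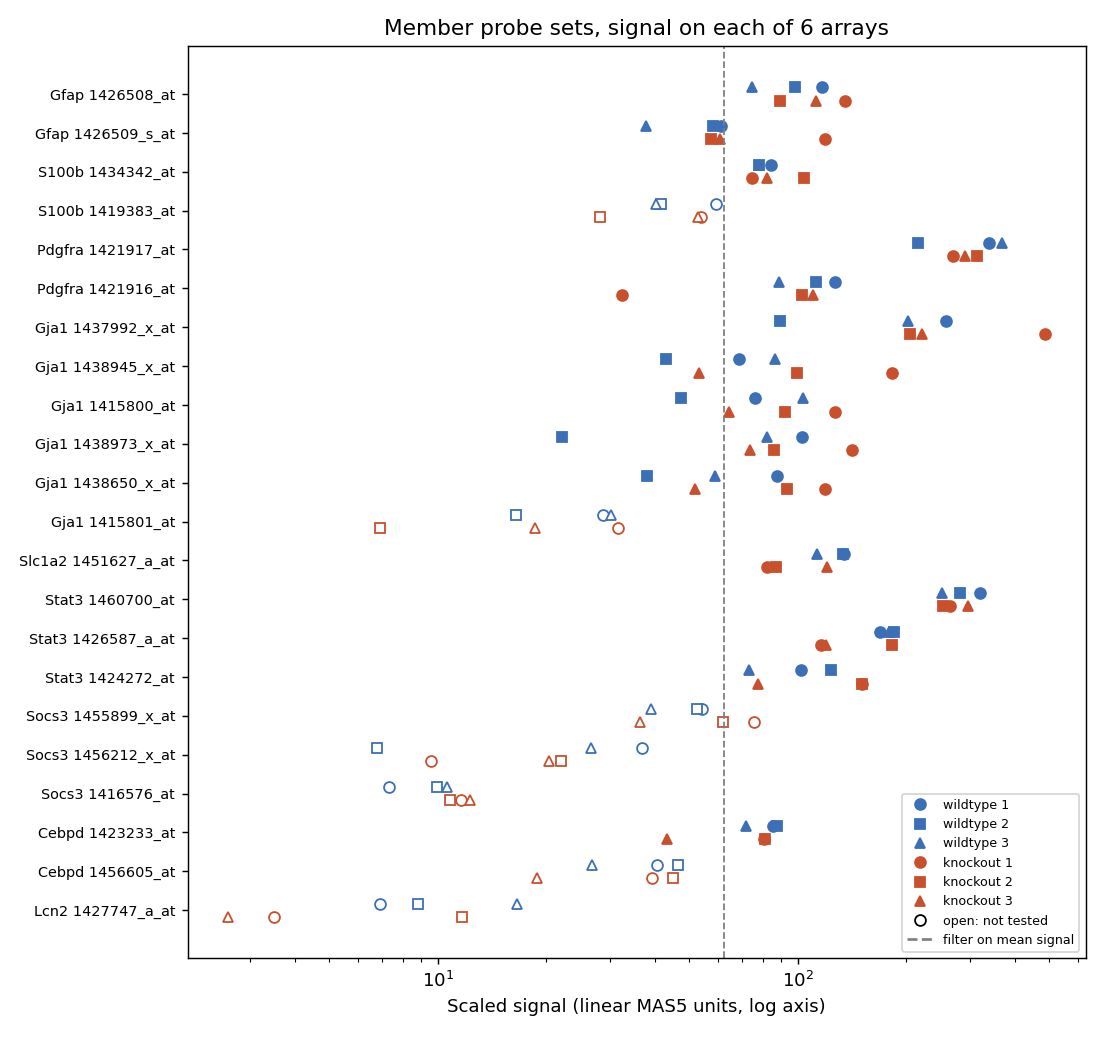
Scaled signal (linear MAS5 units, log axis) of the 22 member probe sets on each of 6 arrays, wildtype in blue and knockout in red, with filled symbols for tested probe sets and the filter on mean signal (62.4) as a dashed line. The groups overlap in every tested row, and for all 5 tested Gja1 probe sets knockout array 1 is the rightmost symbol and wildtype array 2 the leftmost.

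Quality values differed between the arrays, and their part in the member values was not tested. Knockout array 1 correlated with the other arrays at 0.914 to 0.936, and those 5 correlated with each other at 0.958 to 0.979. The control for the 5' end of 18S ribosomal RNA had a scaled signal of 2573 on wildtype array 2 and 609 on knockout array 1, and at most 54.9 on the other 4. At the 3' end of 18S it was 226 on wildtype array 2, 118 on knockout array 1 and 76.0 to 115 on the other 4. For Actb, the signal at the 3' end over that at the 5' end, a measure of RNA integrity and labelling, was 1.44 to 1.64 in wildtype and 1.69 to 2.17 in knockout, highest on knockout array 1. For Gapdh the same ratio was 0.82 to 0.98 in wildtype and 0.88 to 1.18 in knockout, so the groups overlapped. Of the 15 tested member probe sets, 8 had their highest signal on knockout array 1 and 4 their lowest, and 6 had their lowest signal on wildtype array 2. Gja1 alone supplied 5 of those 8 and 5 of those 6. The same shares over all tested probe sets were not computed, so these counts are a description only. Rod genes, which identify the tissue as retina, were bright throughout: 8 of 8 measured ones passed the filter.

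Of the astrocyte structural genes, Gfap had positive fold changes in both its probe sets, neither past the test. Probe set 1426508_at had scaled signals of 117, 98.1 and 74.5 on wildtype arrays 1 to 3 and 135, 89.0 and 113 on the knockout arrays. The highest value came from knockout array 1, and knockout array 2 lay below wildtype arrays 1 and 2. Means were 96.5 ± 21.3 in wildtype and 112 ± 23.2 in knockout (SD, n = 3), with a log2 fold change of 0.19 ± 0.22 (SE). Its 95% interval ran from 0.81-fold to 1.60-fold, so a doubling of Gfap lay outside the interval for this probe set. With 1 array left out the value ran from 0.04 (without wildtype array 3) to 0.32 (without knockout array 2).

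The second Gfap probe set, 1426509_s_at, had 61.2, 58.1 and 37.8 in wildtype and 119, 57.5 and 60.9 in knockout. Its wildtype mean of 52.4 lay below the filter, so it was tested only through its knockout signal. Its sign is therefore no independent support for that of the first. Knockout array 1 stood well above the rest, while the other knockout arrays lay within the wildtype range. The log2 fold change was 0.42 ± 0.28 (SE), with a 95% interval of 0.87-fold to 2.06-fold. Without knockout array 1 the log2 fold changes of the 2 probe sets were 0.06 and 0.15. Markers of Mueller glia, the other retinal source of Gfap, had summed signals of 13602 to 14340 in wildtype and 13530 to 14581 in knockout (18 genes), and their part in the Gfap values was not tested.

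S100b, a calcium-binding protein of astrocytes, had 84.4, 78.2 and 78.0 in wildtype and 74.8, 104 and 82.2 in knockout at probe set 1434342_at. Only knockout array 2 lay clearly above the wildtype values, and knockout array 1 lay below them. The log2 fold change was 0.09 ± 0.19 (SE), with a 95% interval of 0.79-fold to 1.43-fold. Its other probe set, 1419383_at, was below the filter at 47.1 ± 10.5 in wildtype and 45.0 ± 14.6 in knockout (SD, n = 3) and was not tested.

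Pdgfra, the receptor of astrocyte and oligodendrocyte precursors, had 340, 216 and 370 in wildtype and 269, 314 and 291 in knockout at probe set 1421917_at. All 3 knockout values fell inside the wildtype range. The log2 fold change was -0.05 ± 0.21 (SE), with a 95% interval of 0.70-fold to 1.34-fold. Probe set 1421916_at had 127, 112 and 88.6 in wildtype but 32.4, 103 and 110 in knockout. The low value came from knockout array 1 alone, and the log2 fold change of -0.45 ± 0.34 (SE) was -0.02 without that array.

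Among the other genes of PDGF signalling, 3 of 5 were tested, and all 3 had values near 0, with Pdgfc at 0.09 and Pdgfb, the ligand that recruits pericytes, at 0.05. Oligodendrocyte lineage markers, which the optic nerve head could bring, had summed signals of 1200 to 1434 in wildtype and 1372 to 1850 in knockout, highest on knockout array 1. Of those 10 genes, 5 were below the filter, among them the precursor factors Olig1 and Olig2. Cnp, a myelin enzyme, had a log2 fold change of 0.39 and Sox10, a lineage transcription factor, -0.38, neither past the test. The part of these cells in the Pdgfra signal was not tested.

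Gja1, which encodes connexin 43, the gap junction protein that couples astrocytes, had the largest positive values of the members. Its brightest probe set, 1437992_x_at, had scaled signals of 258, 89.2 and 202 on the wildtype arrays and 485, 204 and 221 on the knockout arrays. Knockout array 1 was the highest and wildtype array 2 the lowest, and the other 4 arrays lay close together. Means were 183 ± 85.7 in wildtype and 304 ± 157 in knockout (SD, n = 3), with a log2 fold change of 0.68 ± 0.39 (SE) and a 95% interval of 0.87-fold to 2.94-fold.

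The other 4 tested Gja1 probe sets had log2 fold changes of 0.53 (1438945_x_at), 0.27 (1415800_at), 0.54 (1438973_x_at) and 0.40 (1438650_x_at). Probe set 1438650_x_at had a wildtype mean of 61.6, below the filter, and passed through its knockout signal. On all 5 tested probe sets the highest signal was on knockout array 1 and the lowest on wildtype array 2. They are assigned to 1 gene and read the same RNA, so they are not replicates of the comparison. A sixth, 1415801_at, was below the filter, with 25.2 ± 7.56 in wildtype and 19.0 ± 12.3 in knockout (SD, n = 3). Its difference had the opposite sign. Without knockout array 1 the value of the brightest was 0.30, without wildtype array 2 it was 0.28, and without both arrays it was -0.09. All 5 tested probe sets turned negative without both, from -0.17 to -0.03. Leaving out the highest knockout array and the lowest wildtype array lowers each value by construction. The fall is therefore a description of how far the values rest on these arrays.

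Connexin 43 is also made by pigment epithelium, lens epithelium and vessels, and the marker lists of those tissues varied between arrays. Pigment epithelium markers had summed signals of 3120, 1198 and 2378 on wildtype arrays 1 to 3 and 3447, 2230 and 3067 on the knockout arrays (8 genes). As with Gja1, this sum was lowest on wildtype array 2 and highest on knockout array 1. A sum without Ttr, its largest part on knockout array 1, was not computed. The visual cycle genes Rpe65 and Lrat of that list were below the filter. Ttr, a retinol carrier of pigment and ciliary epithelium, had a log2 fold change of 0.70 and Dct, a melanin enzyme, 0.34. Ttr alone supplied 1474, 411 and 1161 of the wildtype sums and 1879, 1110 and 1485 of the knockout sums. Dct was also lowest on wildtype array 2 (258), but it was highest on knockout array 3 (599). On wildtype array 1 (582) it also lay above knockout array 1 (552). Lens markers did not share the order of the arrays, with sums of 246, 263 and 2057 for wildtype and 717, 364 and 1254 for knockout. Lens gamma crystallins had values of 0.80 (Cryga) and 0.68 (Crygf). Endothelial and pericyte markers did not share the order either, with sums of 2817, 2685 and 2235 for wildtype and 2778, 2490 and 3074 for knockout. The part of these tissues in the Gja1 signal was not tested.

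**Figure D2:**
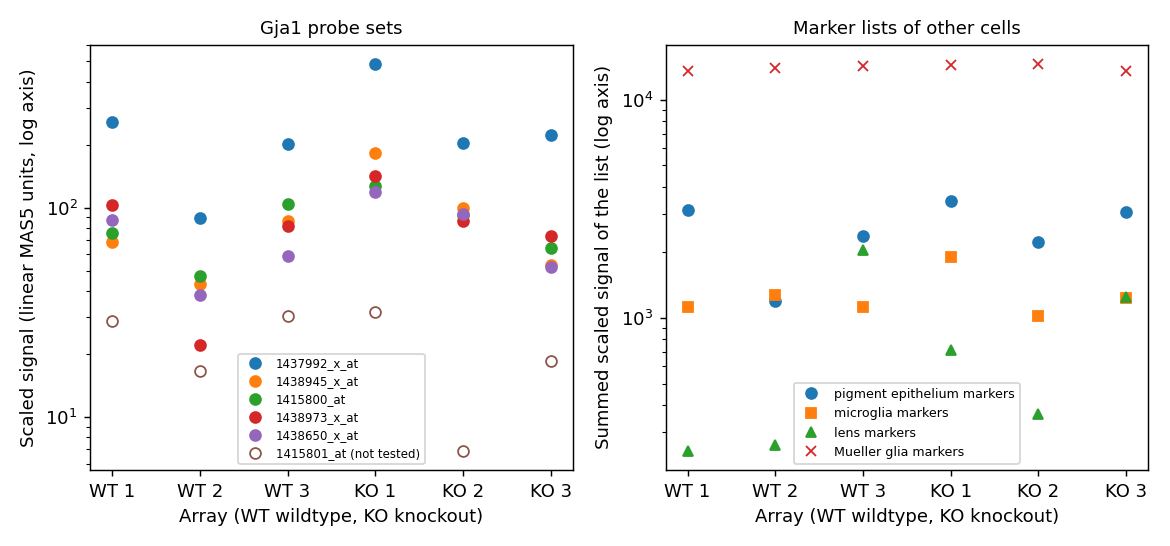
Left, scaled signal (log axis) of the 6 Gja1 probe sets on wildtype (WT) and knockout (KO) arrays, open circles not tested; right, summed scaled signal (log axis) of 4 marker lists on the same arrays. The 5 tested Gja1 probe sets and the pigment epithelium sum (1198 on WT 2, 3447 on KO 1) are all lowest on WT 2 and highest on KO 1. Ttr alone supplied 411 of that sum on WT 2 and 1879 on KO 1. Dct of the same list had 582 on WT 1 and 552 on KO 1.

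The array patterns nearest to each gene were sought among 8158 other named genes with a tested probe set, by the root mean square difference of log2 values centred on their mean over the 6 arrays. For Gja1 the 3 nearest were Cryz, a quinone reductase first described as a lens crystallin (0.23), Ttr (0.26) and Bmp1, a procollagen protease (0.27), where the Gja1 values themselves had a root mean square of 0.65. For Gfap they were Lin37 (0.036), Pwp2 (0.037) and the neuropeptide precursor Cartpt (0.050), against 0.24 for Gfap itself. How often other genes have patterns this near was not tested, and these are given as a description.

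Of the other gap junction genes, 4 of 10 measured ones were tested, with 2 positive and 2 negative values. The astrocyte connexin gene Gjb6 was below the filter. Gjd2, the neuronal connexin 36 gene, had a log2 fold change of -0.49 and the pannexin Panx1 0.19, neither past the test.

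Slc1a2, the glutamate transporter GLT-1 of astrocytes, which in the retina is found mainly in cones and bipolar cells, had 134, 134 and 113 in wildtype and 82.3, 87.1 and 120 in knockout. Knockout arrays 1 and 2 lay below all wildtype arrays, and knockout array 3 lay inside their range. Means were 127 ± 12.2 and 96.5 ± 20.6 (SD, n = 3). The fitted log2 difference was -0.35 ± 0.20 (SE), with a 95% interval of 0.58-fold to 1.06-fold. The value kept its sign in the 18 alternatives that tested this probe set, from -0.49 (without knockout array 3) to -0.08 (without rescaling). Alternatives of filter, intensity trend, moderation, replicate block and threshold cannot change the value, so they are no check of its sign. The sign was also kept for both Gfap probe sets and for Stat3 1426587_a_at and 1424272_at.

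Glutamate handling genes beyond Slc1a2 had 5 positive and 2 negative values among 7 tested of 9 measured. The Mueller glia and astrocyte transporter Slc1a3 had a log2 fold change of 0.20 and the glutamine transporter Slc38a3 0.29. Slc1a4, a neutral amino acid transporter, had -0.83, where knockout array 1 was at 5.15 and the other 5 arrays lay between 111 and 137. A probe set of the neuronal transporter gene Slc1a1 was named after its values were seen. Of 184 tested probe sets of all the other lists, only this 1 was at least 1.5-fold apart without overlap. The share over all tested probe sets was 1.61%. The Slc1a1 probe set had 269, 263 and 261 in wildtype and 67.5, 183 and 196 in knockout, a log2 fold change of -0.87. The other 2 Slc1a1 probe sets had -0.28 and 0.09.

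**Figure D3:**
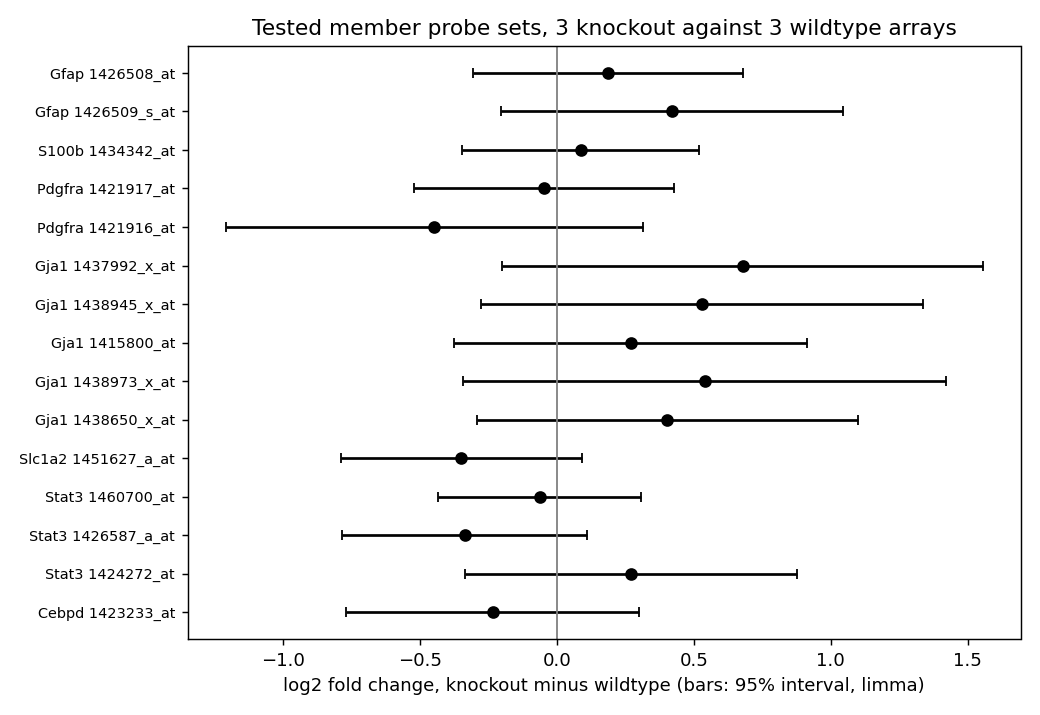
Log2 fold change, knockout minus wildtype, of the 15 tested member probe sets with 95% intervals from limma, 3 arrays a group. Every interval includes 0; Gja1 1437992_x_at has the largest positive value (0.68) and Pdgfra 1421916_at the largest negative one (-0.45).

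Of the signalling genes of gliosis, Stat3 had 3 tested probe sets that differed in sign. Probe set 1460700_at, the brightest, had 322, 282 and 252 in wildtype and 264, 253 and 297 in knockout, all 3 knockout values inside the wildtype range. Its log2 fold change was -0.06 ± 0.17 (SE), with a 95% interval of 0.74-fold to 1.24-fold. Probe set 1426587_a_at had 169, 185 and 179 in wildtype and 116, 182 and 120 in knockout, so that knockout arrays 1 and 3 were low and knockout array 2 was within the wildtype range. Its log2 fold change was -0.34 ± 0.20 (SE). Probe set 1424272_at had 102, 124 and 73.1 in wildtype and 151, 151 and 77.7 in knockout, and its log2 fold change was 0.27 ± 0.27 (SE). Here knockout arrays 1 and 2 were above all wildtype arrays and knockout array 3 was not. That value was 0.54 without knockout array 3, 0.10 without wildtype array 3 and 0.04 with array weights, and that of 1426587_a_at was -0.52 without knockout array 2.

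The cytokines that act through Stat3 were mostly dim. Of 13 measured ligand and receptor genes, 8 were below the filter, among them the ligands Lif, Il6 and Il11 and the oncostatin receptor Osmr. The 5 tested ones had values from -0.11 to 0.09, with the shared receptor subunit Il6st at -0.11 and Il6ra at 0.09. Among kinases, other STATs and inhibitors of the pathway, 8 of 19 tested genes had positive and 11 negative values, with 0 past the test. Pias2, of a family of STAT inhibitors and SUMO ligases, had 326, 356 and 418 in wildtype and 189, 291 and 247 in knockout, without overlap but less than 1.5-fold apart on the log2 scale (-0.57). Socs7 had -0.40.

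Socs3, the feedback inhibitor of Stat3, gave little signal. Its brightest probe set, 1455899_x_at, had 54.2, 52.3 and 39.2 in wildtype and 75.6, 62.1 and 36.4 in knockout, with 2 knockout arrays above and 1 below all wildtype arrays. Probe set 1456212_x_at had 23.4 ± 15.3 and 17.3 ± 6.73 (SD, n = 3). Probe set 1416576_at had 7.30, 9.94 and 10.6 in wildtype and 11.6, 10.8 and 12.3 in knockout. These values did not overlap, but all lay below the pseudocount of 19.1. None of the 3 was tested.

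Cebpd, a transcription factor of the acute phase response, had 85.5, 87.5 and 71.9 in wildtype and 80.6, 80.9 and 43.3 in knockout at probe set 1423233_at. Only knockout array 3 lay below the wildtype range. The log2 fold change was -0.23 ± 0.24 (SE), with a 95% interval of 0.59-fold to 1.23-fold. Without knockout array 3 it was -0.0087, and without rescaling 0.018. Its second probe set, 1456605_at, was below the filter, with 40.7, 46.3 and 26.8 in wildtype and 39.2, 45.0 and 18.8 in knockout, and it too was lowest on knockout array 3. Related C/EBP and S100 genes had 0 positive and 5 negative values among 5 tested, from -0.23 (S100a13) to -0.03, with S100a10 at -0.21.

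Lcn2, the lipocalin that reactive astrocytes and neutrophils secrete, was at 6.91, 8.81 and 16.6 in wildtype and 3.51, 11.7 and 2.62 in knockout. All 6 values lay below the pseudocount and the probe set was not tested, so a difference was not detectable at this signal. Neutrophil and red cell markers were also dim, with 6 of 9 genes below the filter and summed signals of 259 to 352 in wildtype and 275 to 311 in knockout. Mpo, a neutrophil granule enzyme, had a log2 fold change of -0.32 and Ngp -0.03.

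**Figure D4:**
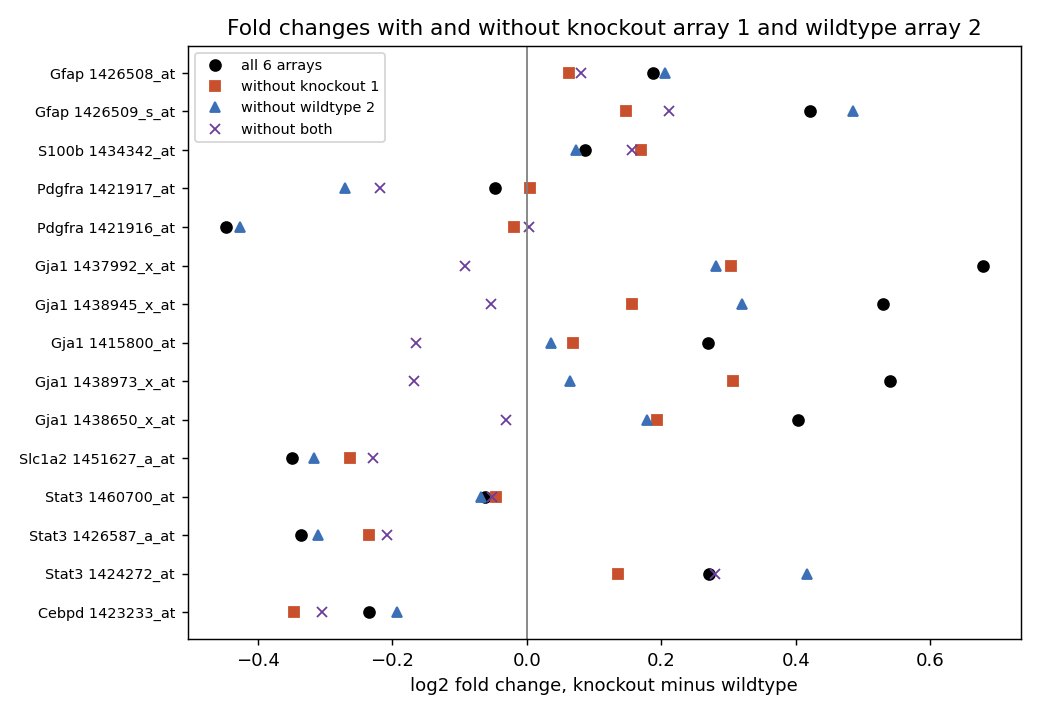
Log2 fold change of each tested member probe set over all 6 arrays, without knockout array 1, without wildtype array 2 and without both. The 5 Gja1 values fall from between 0.27 and 0.68 to between -0.17 and -0.03 when both are left out, and Gfap 1426509_s_at falls from 0.42 to 0.15 without knockout array 1. The arrays left out hold the extreme values of these probe sets, so the direction of each fall is fixed by construction.

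Other astrocyte markers had 8 positive and 2 negative values among 10 tested genes, with a median of 0.06 and 0 past the test. Ndrg2, a marker of astrocytes, had 457, 409 and 435 in wildtype and 507, 581 and 645 in knockout. The groups did not overlap, at a log2 fold change of 0.39 ± 0.16 (SE). Aqp4, Gjb6 and Fgfr3 were below the filter. Slc1a3, Aqp4 and Sox9 of this list are also in the Mueller glia list, so the lists do not separate these cells fully.

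Other reactive glia genes had 3 positive and 9 negative values among 12 tested of 30 measured, with a median of -0.07 and 0 past the test. Those below the filter included Serpina3n, Timp1 and Edn2, which rise in injured retinae. S1pr3, a sphingosine phosphate receptor, had 195, 274 and 153 in wildtype and 37.2, 172 and 117 in knockout (log2 fold change -0.96 ± 0.40, SE), lowest on knockout array 1. Ptx3, a secreted pentraxin, had a log2 fold change of -0.46, with all knockout arrays below all wildtype arrays.

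The cells that accompany astrocytes were read from marker lists, of which that of Mueller glia shares genes with the astrocyte list. Mueller glia genes had 10 positive and 7 negative values among 17 tested, with the potassium channel Kcnj10 at 0.46 and Sox2 at 0.22. Endothelial and pericyte genes had 7 positive and 2 negative values, with the pericyte gene Rgs5 at 0.30 and the endothelial receptor Eng at -0.44. Microglia markers, with C1qb at 0.41 and Cx3cr1 at 0.35, had summed signals of 1903 on knockout array 1 and 1023 to 1276 on the other 5. Markers of ganglion cells, the source of PDGF-A, had 3 positive and 4 negative values, with Nefh at 0.58 and Thy1 at 0.42. Their summed signals were 6414 to 6720 in wildtype and 7041 to 7313 in knockout and did not overlap. This held for none of the other 17 lists, and the difference was not tested. The median log2 fold change of the tested ganglion cell genes was -0.00012. Of all tested probe sets, 4.05% had every knockout array above every wildtype array, and no such share was computed for summed signals. Positive and negative values numbered 3 and 2 for tested oligodendrocyte lineage genes, 5 and 1 for microglia, 7 and 0 for lens, 4 and 2 for pigment epithelium, 1 and 2 for neutrophil and red cell genes, and 2 and 6 for rod genes. Of the rod genes, Rom1 had -0.34 and Rcvrn 0.26. Over the 123 tested genes of the other 17 lists, each counted once, 0 passed the test and 6 had a limma unadjusted p under 0.05. Of their values 67 were positive and 56 negative, and the median was 0.014. The groups did not overlap for 12 of the 123 (9.76%). Among these were Ndrg2, Rgs5 and Nefh, higher in the knockout, and Ptx3, Pias2, Sox10, S100a10 and Rom1, lower in the knockout. Of all tested probe sets, 4.05% were without overlap and higher in the knockout, and 5.05% were without overlap and lower.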

How the data were processed

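Retinal RNA of 3 wildtype and 3 knockout samples was measured on Affymetrix arrays. The intensity values the authors deposited are linear, 1 for each probe set on each array; MAS5 is named in the submitters' processing notes, and its version and scaling target are not given in the sources used here. From 22690 probe sets, 64 controls were left out. Arrays, whose deposited trimmed means ran from 171 to 312, were brought to one trimmed mean, leaving out the top and bottom 2%. The 20th percentile of all signals, 19.1, served as pseudocount for log2 values. The group difference (knockout minus wildtype) was estimated with limma 3.58.1 in R 4.3.3, using an intensity trend, over 13575 probe sets, with Benjamini-Hochberg adjustment over all of them. The fit was tested on simulated arrays.

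Members, gene lists and tests were chosen with earlier results of these data known. All members are named, with the 2 genes of largest absolute log2 fold change per other list (brightest tested probe set of a gene) and the 3 nearest patterns of Gfap and Gja1. Summed signals take the brightest probe set of each gene. Symbols follow the platform annotation, updated by Entrez identifier. Probe sets ending in _x_at, _s_at or _a_at can bind related transcripts. Since pooling or separate animals are not stated, p-values reflect sample-to-sample spread that can be technical, and the number of arrays limits precision. Alternatives covered scaling, pseudocount, filter, variance model, array weights, a replicate block, threshold and arrays left out. The targeted gene is not reported here.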

Additional observations from a re-analysis of the deposited data

How the results depend on the processing

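The count of member probe sets past the threshold was 0 in all 19 alternatives, with a lowest limma adjusted p of 0.60. Over all probe sets the count, 2 in the reported setting, was 10 for unscaled arrays, 1 when all probe sets were tested, 0 for the unmoderated statistic and 4 without wildtype 2 and knockout 1 together. It ran from 0 (without wildtype replicate 3) to 4 (without wildtype replicate 2) with 1 array left out. Members at least 1.5-fold apart without overlap, 0 as reported, numbered 1 without rescaling (Gfap 1426509_s_at, 0.67, against 2.64% of all tested probe sets) and 0 to 2 with 1 array left out: Gja1 1437992_x_at without wildtype replicate 1 (0.96, against 3.44%), and Gja1 1438945_x_at and 1438650_x_at without knockout replicate 3 (0.90 and 0.67, against 3.17%). Of these, Gfap 1426509_s_at and Gja1 1438650_x_at had passed the filter only through their knockout signal. The median log2 fold change of the members (0.19) was 0.45 without rescaling, where that of all probe sets was 0.29, 0.020 without a filter, where 22 were used, -0.055 above the 60th percentile, where 4 were used, -0.054 without wildtype 2 and knockout 1 together, and 0.054 with array weights. It ran from 0.065 to 0.29 with 1 array left out.

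Signs turned in 17 of 274 cases, none of them past the test. The 274 include alternatives of filter, intensity trend, moderation, replicate block and threshold, in which a fold change cannot differ from the reported one. Without rescaling Cebpd (0.018), Pdgfra 1421917_at (0.24) and Stat3 1460700_at (0.23) became positive. With median scaling Pdgfra 1421917_at had 0.041 and Stat3 1460700_at 0.026, and with array weights Pdgfra 1421917_at had 0.054. Without wildtype 2 and knockout 1 together, Gja1 had -0.093, -0.054, -0.16, -0.17 and -0.032 and Pdgfra 1421916_at had 0.0026. With 1 array left out, Pdgfra 1421917_at ran from -0.27 to 0.093, Stat3 1460700_at from -0.14 to 0.022 and S100b from -0.025 to 0.17. Settings with other arrays or probe sets differ by construction; for the rest the cause was not tested.

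A replicate block, from the array numbers, left 2 probe sets and 0 members past the threshold. Deviations of wildtype and knockout arrays of equal number had correlations of 0.18, -0.029 and 0.084. Those of unequal number ran from -0.29 to 0.26. With so few arrays these values cannot tell whether arrays of equal number share more than the number.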
